A study of Mus musculus with 53 samples.

Results

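The 38 genes described here are components of motile cilia or markers of the cells that carry them, and they were chosen as a list of gene symbols. That list was drawn up with earlier results of these data known, so its counts beside all genes are a description and not a test. They were followed in the trachea of embryonic day 18.5 (E18.5) mice against the other tissues hybridised to Affymetrix Mouse Gene ST arrays, and in the E18.5 esophagus against the other tissues hybridised to Affymetrix Mouse 430 arrays. Each gene was read from its brightest probe set. On the Gene ST arrays 37 of the 38 genes were measured among 19920 genes, and on the Mouse 430 arrays all 38 among 18162 genes. Tubb4b, a beta tubulin, was not read on the Gene ST arrays because its probe sets there are annotated to more than 1 gene.

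Total RNA came from 53 samples, 1 array each. The Gene ST table holds E18.5 trachea, E18.5 lung, and whole cornea at E14.5, E15.5, E17.5 and postnatal days 3, 7, 14 and 28 (P3 to P28), with 3 arrays in each group. The Mouse 430 table holds E18.5 esophagus, stomach and proximal small intestine, and 3 embryonic ages (E14.5, E16.5, then E18.5) of bladder and of dorsal skin, with 3 arrays in each group except 2 for E14.5 bladder. All mice were wild-type CB6, except that the E18.5 bladders came from Get1 +/- mice. The laboratory had used the arrays of cornea, of bladder and of E18.5 skin in its earlier studies. Whether a group's arrays stand for different animals is not in the labels, so p-values measure only how far these arrays spread, and that spread may be technical. The first pair of E14.5 skin arrays may be 1 sample, by their titles.

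A motile cilium is a microtubule axoneme with a ring of outer doublets around a central pair. Dynein arms on the doublets slide them against each other, and radial spokes, the central pair apparatus and the nexin-dynein regulatory complex control that sliding. In the airway, multiciliated cells use such cilia to move mucus, and Foxj1 and the Rfx transcription factors switch on the genes of the axoneme. The esophagus shares its origin in the foregut with the trachea, and ciliated cells are known in its lining before birth, which later becomes stratified squamous epithelium.

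All levels below are log2(intensity + 16) after quantile normalization within each table, so a level of 4 is an intensity of 0. A gene was called higher or lower when its Benjamini-Hochberg adjusted p in limma, taken over all genes of the table, was under 0.05 and its fold change was at least 2, a log2 change of 1. The spread behind each standard error (SE) and p is pooled over all groups of a table. It can be narrower or wider than the spread within esophagus. The SD of Efcab10 was 1.09 in esophagus and 0.18 in stomach, and that of Foxj1 was 0.03 in esophagus and 1.71 in E18.5 bladder. Changes are on this scale, which understates the change of dim genes, and levels of different probe sets are not set against each other.

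The arrays labelled lung went against that label. Genes of thymocytes were among their bright signals: Rag1, a recombinase of developing lymphocytes, averaged 14.22 in the lung-labelled arrays and 6.89 in E14.5 cornea, and Cd8a averaged 14.04 in the lung-labelled arrays and 7.62 in E14.5 cornea. All 13 measured genes of a list for thymocytes and thymic epithelium were lower in trachea than in the lung-labelled arrays, where 5.26% of all genes were. Sftpc, the surfactant protein of alveolar cells, averaged 6.83 in the lung-labelled arrays and 6.86 in E14.5 cornea. The counts of cilia genes higher in trachea than the mean of, or than each of, the other groups are therefore given with and without them. Changes of single genes and counts of other lists against the mean of the other groups include these arrays.

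The trachea arrays held RNA of the airway wall and its neighbours. Cyp2f2 averaged 14.21, Scgb3a2 13.88 and Muc5b 12.26 in trachea arrays, all of them genes of airway secretory cells, against 7.95, 7.79 and 8.27 in lung-labelled arrays. Cyp2f2 was also high in P28 cornea, at a mean of 12.30. Other genes of that list differed. Bpifa1 and Reg3g were bright in lung-labelled arrays too, at 12.32 and 11.76, against 7.47 and 6.76 in E14.5 cornea. In trachea arrays they averaged 10.07 and 14.19. Scgb1a1 averaged 6.32 in trachea arrays and 6.66 in E14.5 cornea. In trachea against the mean of the other groups, 9 of 15 airway secretory genes, 13 of 15 cartilage genes and 15 of 15 skeletal muscle genes were called higher, and 1 secretory gene lower. The shares of all genes called there were 10.2% higher and 6.96% lower. Tg, the thyroid hormone precursor, averaged 13.89 in trachea arrays and 7.37 in lung-labelled arrays, and Pth, parathyroid hormone, stood at 12.65, 11.58 and 7.87 in the 3 trachea arrays. The part of these other cells in the results on the cilia genes was not tested. In whole tissue, fewer cells of a type and less RNA per cell cannot be told apart.

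The Mouse 430 arrays fell into sets by their brightness. The 99th percentile of deposited intensity lay between 3360 and 3567 in the 17 arrays that include esophagus, and between 4208 and 6068 in the 9 arrays of small intestine, E16.5 skin and E18.5 skin. Calls in either direction were made between esophagus and small intestine (48.8% of all genes) and between esophagus and E18.5 skin (48.9%), against 7.05% between esophagus and stomach. For this reason results are also given against the 5 groups whose brightness was like that of esophagus, namely stomach, the 3 bladder groups and E14.5 skin. This alternative was chosen after seeing the data. On the Gene ST arrays the intensity exceeded by 0.1% of probe sets was 16535 to 17756 in the 6 trachea and lung-labelled arrays and 9837 to 12526 in the 21 cornea arrays, so brightness and tissue cannot be told apart there. Small intestine replicate 4 stood apart from its group, with a stratified epithelium list at 9.72 against 4.41 in the lowest of the other small intestine arrays.

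The esophagus arrays held RNA of stratified mucosa. Krt4 averaged 13.43 in esophagus and 12.93 in stomach, Krt13 averaged 11.85 in esophagus and 11.26 in stomach, and both are keratins of that lining. The cartilage genes Col2a1 at 4.46, Matn1 at 4.55 and Cnmd at 4.47 were close to the floor in esophagus, while Sox9 at 8.82, Hapln1 at 8.36 and Col11a1 at 7.25 were well above it, with stomach at 9.96, 8.37 and 7.11. Of 15 cartilage genes, 1 was called higher and 1 lower against the mean of the other groups. Tg averaged 4.97 in esophagus and 4.88 in stomach. Pth stood at 4.17, 6.42 and 6.10 in the esophagus arrays, against at most 4.12 in stomach and 4.81 in the remaining arrays. Of 7 measured thyroid and parathyroid genes, 1 was called higher and 1 lower in esophagus against the mean of the other groups. The list for stratified esophageal epithelium had 10 of 14 measured genes called higher in esophagus against the mean of the other groups. The shares of all genes called in that comparison were 9.27% higher and 8.38% lower.

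**Figure D1:**
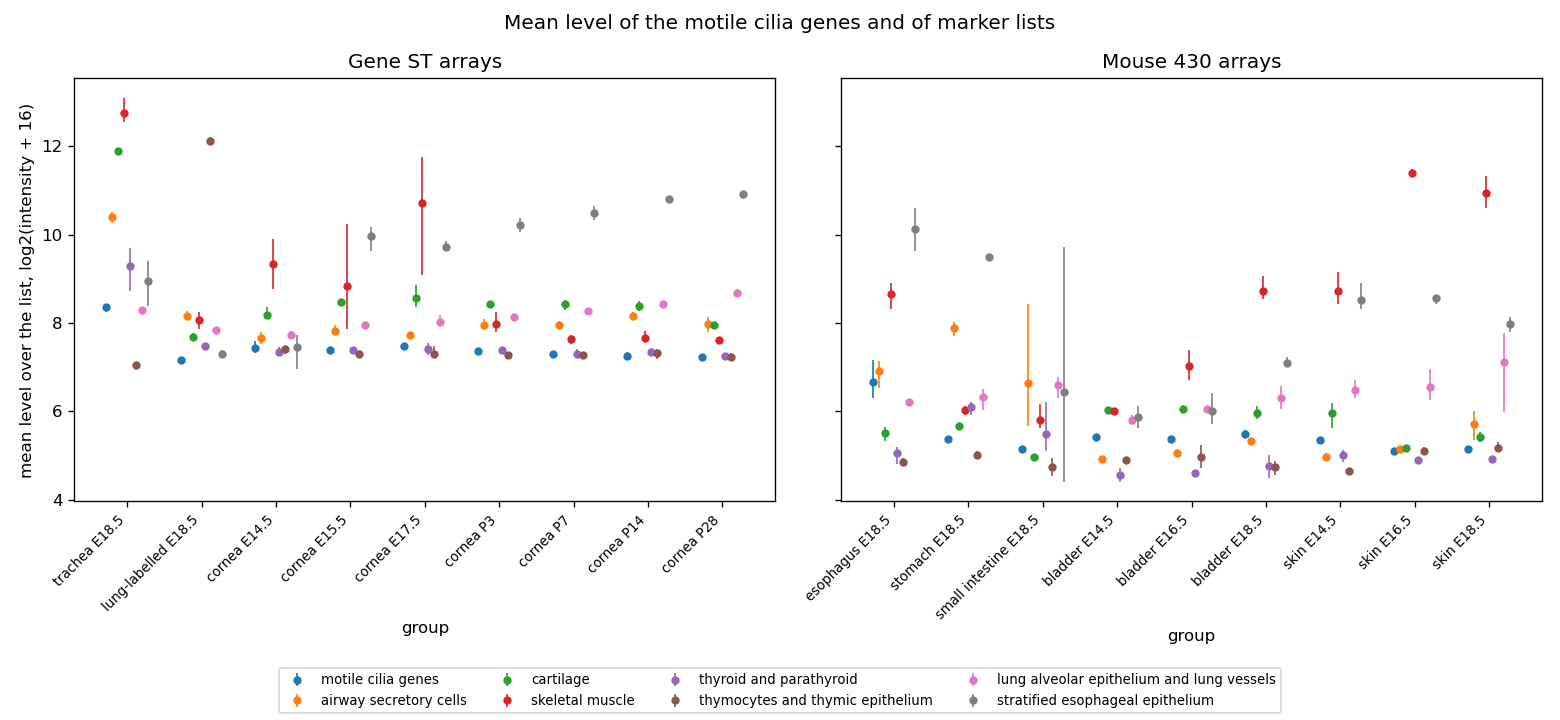
Mean level of the motile cilia genes and of 7 lists of cell type markers in each group, as log2(intensity + 16), with Gene ST arrays on the left and Mouse 430 arrays on the right. Points are means over the arrays of a group and bars run from the lowest to the highest array. The thymocyte list averaged 7.04 in trachea arrays and 12.11 in the lung-labelled arrays.

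In trachea, 15 of the 37 measured cilia genes were called higher than the mean of the other 8 groups and none was called lower. Of all genes, 10.2% were called higher and 6.96% lower, 17.1% in all. The median log2 change was 0.77 over the cilia genes and -0.07 over all genes. In 21 of 37 cilia genes every trachea array stood above each of the other 24 arrays, which was so for 9.61% of all genes. Against the cornea groups alone, with the lung-labelled arrays left out of the mean, the same 15 were called higher and none lower, where 11.5% of all genes were higher and 8.39% lower.

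Among the regulators, Ccno alone was called. Ccno, a cyclin-like protein needed to amplify centrioles in multiciliated cells, stood at 9.57, 9.36 and 9.46 in the trachea arrays, against 8.01 to 8.73 in the other arrays, and rose by 1.12 ± 0.11 (log2 change ± SE, adjusted p = 1.4e-08). The trachea arrays were all above the others. Foxj1, the master regulator of motile ciliogenesis, stood at 8.18, 8.05 and 7.70 in the trachea arrays, within the 7.32 to 8.48 of the other arrays, and its log2 change was -0.08 (adjusted p = 0.56). Rfx3 had a log2 change of 0.06 and Rfx2 of 0.31, and neither was called.

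Of the dynein arm and docking genes, 2 of 6 were called higher. Dnah5, a heavy chain of the outer dynein arm, stood at 9.31, 9.53 and 9.11 in trachea arrays, against 6.74 to 7.15 in the other arrays, a log2 change of 2.33 ± 0.07 and a 5.03-fold difference (adjusted p = 1.3e-17). Dynlrb2, a light chain of the dyneins, stood at 8.30, 8.01 and 7.80 in trachea arrays, against 6.51 to 7.35 elsewhere, and rose by 1.21 ± 0.12. Dnah11, Dnah9, Dnah2 and Armc4 had every trachea array above the others without reaching 2-fold, with log2 changes of 0.94, 0.71, 0.66 and 0.64. Armc4 helps to dock the outer arm. Its separation depended on the probe set. The dimmer Armc4 probe set had a log2 change of 0.10, with a mean of 7.17 in trachea and 7.20 in the highest other group.

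The ruler and nexin-dynein regulatory complex had 1 of 5 genes called. Iqcg, a calmodulin-binding subunit of that complex, stood at 7.99, 7.97 and 7.80 in trachea arrays, against 5.14 to 6.72 in the other arrays, and rose by 2.07 ± 0.21 (adjusted p = 1.6e-08). Ccdc39, which with Ccdc40 sets the spacing of arms and spokes, was at 10.09, 9.85 and 8.82 in trachea arrays, 5.93 to 6.24 in lung-labelled arrays and 8.72 to 10.06 in cornea arrays. Its trachea values overlapped those of cornea, while they were 3.46 ± 0.24 above the lung-labelled ones. Ccdc40, Drc1 and Ccdc65 were not called, with log2 changes of 0.37, 0.54 and 0.58.

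Central pair and radial spoke genes were called in 2 of 5 and 3 of 4 cases. Hydin, a large projection protein of the central pair, stood at 8.46, 8.50 and 8.29 in trachea arrays, against 6.77 to 7.22 elsewhere, a log2 change of 1.44 ± 0.06. Spag17, also of the central pair, rose by 1.45 ± 0.08. Spag6 and Spag16 were not called, with log2 changes of -0.11 and 0.22. Spag6l, a near-identical copy of Spag6, was below 2-fold at a log2 change of 0.85. It stood at 8.29, 8.88 and 8.14 in trachea arrays, against 7.37 to 7.46 in lung-labelled and 7.27 to 8.01 in cornea arrays. Signals of the copies may cross-hybridise. Rsph4a, a spoke head protein, stood at 7.92, 7.89 and 7.86 in trachea arrays, against 5.81 to 6.44 in the other arrays, and rose by 1.79 ± 0.08 (3.47-fold, adjusted p = 1.6e-14). Lrrc23 rose by 2.17 ± 0.21, and Rsph1, another spoke head protein, rose by 1.27 ± 0.21 with overlap between the arrays. Rsph9 was not called at a log2 change of 0.77.

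Spef2, a central pair protein, depended on the probe set. Its brightest Gene ST probe set gave a log2 change of 0.34 and was not called. Of its 22 probe sets on these arrays, 13 stood at least 2-fold higher in trachea than the mean of the other groups, and the changes ran from -0.85 to 2.79. With all its probe sets averaged, Spef2 was called higher.

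Of the tektins, tubulin and microtubule proteins, 3 of 6 measured genes were called higher. Tppp3, a tubulin-polymerising protein abundant in ciliated cells, had the largest log2 change of the 37 genes. It stood at 11.43, 11.48 and 11.76 in trachea arrays, against 6.93 to 9.07 in the other arrays, a log2 change of 3.78 ± 0.25 or 13.7-fold (adjusted p = 1.1e-11). Tekt4, a filament protein of the doublets, stood at 9.36, 9.25 and 9.16 in trachea arrays, against 6.88 to 7.71 elsewhere, and rose by 2.08 ± 0.08. Enkur, a calmodulin-binding protein of the axoneme, rose by 1.86 ± 0.25. Mns1, a filament protein of the axoneme, was at 8.66, 8.71 and 8.59 in trachea arrays, inside the 7.78 to 10.84 of the other arrays. Tekt1 and Tekt2 had log2 changes of 0.96 and 0.45 and were not called.

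Of the other ciliated cell proteins, 3 of 7 were called higher. Ak7, an adenylate kinase of the axoneme, stood at 9.24, 9.19 and 9.04 in trachea arrays, against 6.05 to 7.24 in the other arrays, a log2 change of 2.63 ± 0.10 or 6.17-fold (adjusted p = 4.5e-16). Ccdc153 stood at 10.28, 10.26 and 9.72 in trachea arrays, against 7.29 to 8.29 elsewhere, a log2 change of 2.47 ± 0.13. Ccdc113 rose by 1.61 ± 0.22. Efcab10, Pifo, Cdhr3 and Cdhr4 were not called, with log2 changes of 0.40, 0.67, 0.77 and -0.03. The third trachea array was the lowest of the 3 in 25 of 37 genes and in 12 of the 15 called, and it was also low in Pth, named above, in the secretory cell gene Sec14l3, at 7.96 against 12.44 and 12.53 in the other trachea arrays, and in Krt13, at 9.86 against 12.00 and 12.31. The secretory gene Scgb3a2 was not low in it, at 14.15 against 13.75 and 13.74 in replicates 1 and 2, and the mean of the 15 secretory genes lay between 10.27 and 10.51 in all 3 arrays.

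**Figure D2:**
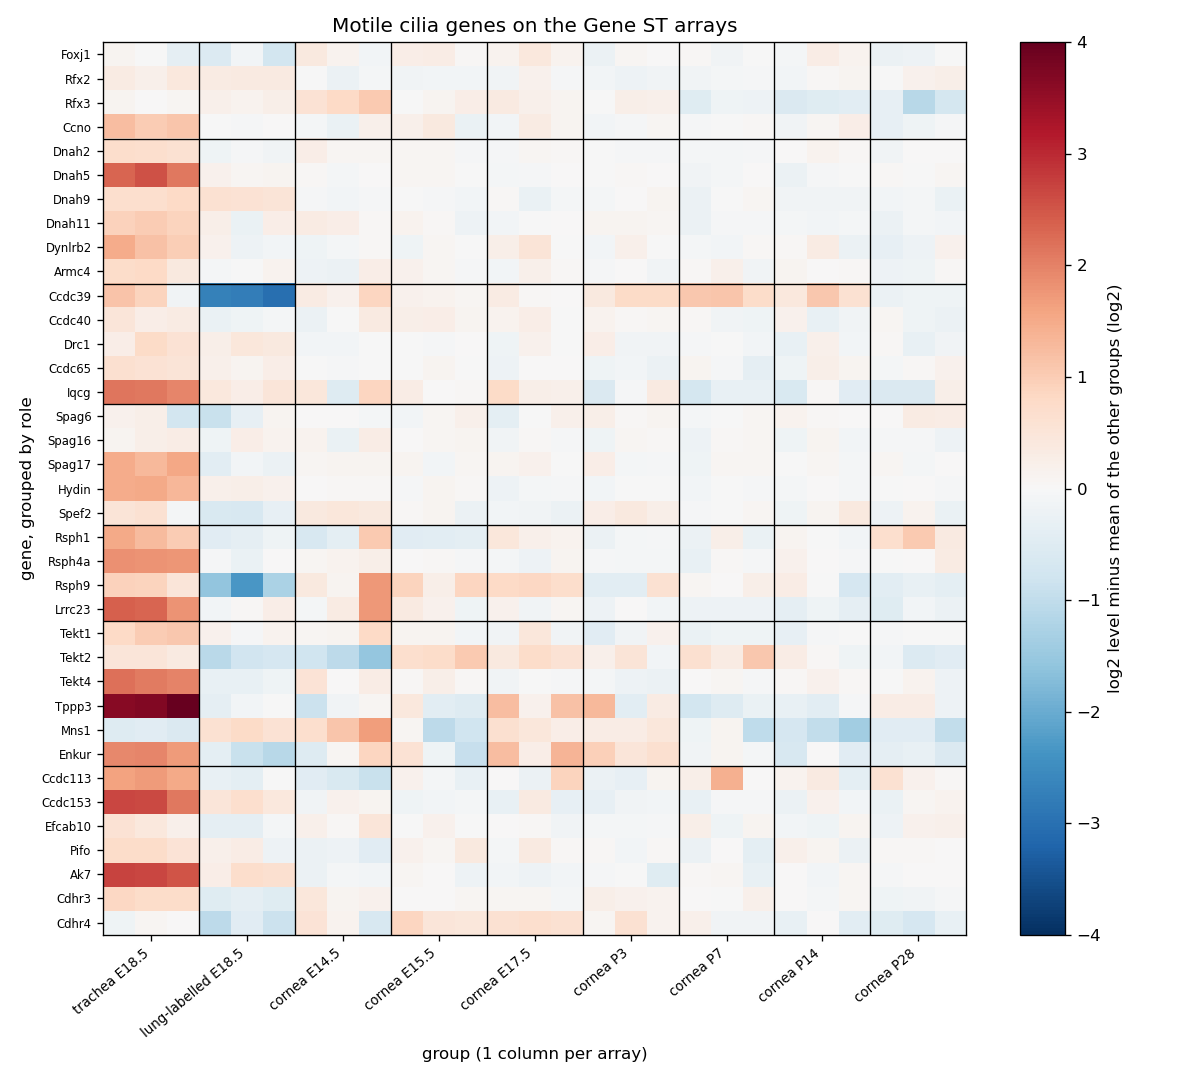
Level of the 37 measured motile cilia genes on every Gene ST array, as the log2 difference from the mean of the other groups, with 1 column per array, the trachea arrays at the left, and genes grouped by role. Differences beyond 4 are drawn at the end of the colour scale. The trachea columns are above 0 across most rows, and Tppp3 is the strongest at 3.78 on average.

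Against the lung-labelled arrays alone, 19 of 37 genes were called higher in trachea and 1, Mns1, lower, where 10.8% of all genes were higher and 5.26% lower, 16.1% in all. Mns1 had a log2 change of -1.16 ± 0.28. Against E17.5 cornea, the cornea age nearest to the trachea, 12 were called higher and none lower, where 9.56% of all genes were higher and 8.23% lower, 17.8% in all. These comparisons share the trachea arrays and are given side by side: Dnah5 was 2.21 above lung-labelled and 2.36 above E17.5 cornea, and Ak7 was 2.08 above lung-labelled and 2.77 above E17.5 cornea. Between lung-labelled arrays and E17.5 cornea none was called higher in lung-labelled arrays, where 10.8% of all genes were, and 6 were called lower, where 12.8% of all genes were, with Ccdc39 at -2.96 and Rsph9 at -2.49.

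Cornea is not a motile ciliated epithelium, but not all of these genes were low in it. Ccdc39 averaged 6.12 in lung-labelled arrays and 8.76 to 9.93 over the cornea ages, and Rsph9 averaged 6.00 in lung-labelled arrays and 8.49 in E17.5 cornea. Over the 7 cornea ages, 10 of 37 genes were called to vary by an F test, with the age means spanning at least 2-fold, where 21.7% of all genes were. Mns1 was highest at E14.5, with a range of 2.17, and Tekt2 was highest at E15.5, with a range of 1.95. Of the 15 genes called higher in trachea, Rsph1, Tppp3, Enkur and Ccdc113 also varied among the cornea ages. In 12 of 37 genes trachea was higher than each other group tested on its own, where 3.04% of all genes were: Ccno, Dnah5, Iqcg, Spag17, Hydin, Rsph4a, Lrrc23, Tekt4, Tppp3, Ccdc113, Ccdc153 and Ak7. Without the lung-labelled arrays the same 12 genes were found, where 5.86% of all genes were.

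In esophagus, 16 of the 38 genes were called higher than the mean of the other Mouse 430 groups and 1 was called lower. Of all genes, 9.27% were called higher and 8.38% lower, 17.7% in all, and the median log2 change was 0.84 over the cilia genes and -0.05 over all genes. In 10 of 38 genes every esophagus array stood above each of the other 23 arrays, which was so for 1.54% of all genes. Against the 5 groups of like brightness, 14 were called higher and none lower, where 3.53% of all genes were higher and 2.14% lower.

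Among the regulators, 1 of 4 was called higher and 1 lower. Foxj1 stood at 4.04, 4.00 and 4.05 in esophagus arrays, at the floor, and its log2 change against the mean of the other groups was -1.65 ± 0.34 (adjusted p = 0.00036). Elsewhere it stood at 7.41 to 8.12 in small intestine and E16.5 and E18.5 skin, at 4.10, 7.22 and 6.86 in the E18.5 bladder arrays, and 4.00 to 4.24 in the remaining groups. Against the 5 groups of like brightness Foxj1 was not called, with a log2 change of -0.41. Rfx3 stood at 9.33, 9.23 and 9.58 in esophagus arrays and rose by 1.60 ± 0.16, with 8.78 to 8.81 in stomach and 5.91 to 6.52 in E18.5 skin. Against the 5 groups it was not called, and its other probe set had a log2 change of 0.01. Ccno and Rfx2 were not called, with log2 changes of 0.51 and 0.11.

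The dynein arm genes had 1 of 6 called. Dynlrb2 stood at 9.31, 8.64 and 10.52 in esophagus arrays, against 4.04 to 5.05 in the other arrays, a log2 change of 4.80 ± 0.23 or 27.8-fold (adjusted p = 2.4e-12). All 3 esophagus arrays were above all the others. Dnah5 was at 4.92, 5.19 and 5.61 in esophagus arrays, against 4.33 to 5.25 elsewhere, and was not called (log2 change 0.40, 1.32-fold). Dnah11 was at 7.34 to 8.42 in esophagus and 4.17 to 5.50 in small intestine and the 2 later skin ages, but 7.52 to 8.55 in the remaining groups. Dnah2 stood at 5.77, 4.95 and 5.54 in esophagus arrays, and at 9.32, 9.47 and 5.27 in small intestine arrays, the last being replicate 4. Dnah9 and Armc4 had log2 changes of 0.62 and 0.40 and were not called.

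Of the ruler and nexin-dynein regulatory complex, 3 of 5 were called higher. Ccdc39 stood at 9.50, 9.69 and 9.83 in esophagus arrays, against 8.52 to 9.02 in stomach, and was at 4.03 to 5.15 in small intestine and the later skin ages. It rose by 2.42 ± 0.14 against the mean of the other groups, and its second probe set by 1.63, but against the 5 groups of like brightness it was not called. Ccdc40 stood at 5.94, 5.15 and 6.41 in esophagus arrays and 4.02 to 4.64 in stomach, a log2 change of 1.34 ± 0.22. It overlapped E18.5 bladder, at 4.91, 5.08 and 5.56. Drc1, a linker subunit of that complex, stood at 5.13, 5.15 and 9.81, and its log2 change was 1.62 ± 0.53. The high value was that of replicate 4, and without that array, or against the 5 groups of like brightness, Drc1 was not called. Iqcg and Ccdc65 were not called, with log2 changes of 0.70 and 0.04.

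The central pair had 0 of 5 genes called in esophagus by limma. At an unadjusted p under 0.05 and with no fold limit, 4 of the 5 passed, where 59.7% of all genes did, with log2 changes of 0.81 for Spef2, 0.77 for Spag16, 0.87 for Spag17 and 0.26 for Hydin. Against the 5 groups of like brightness none of these was called. Their log2 changes there were 0.77 for Spef2, 0.42 for Spag16, 0.58 for Spag17 and -0.23 for Hydin. Spag6 was near the floor at 4.02, 4.03 and 4.11 in esophagus arrays. Spag6l, its near-identical copy, was read from its own probe set and stood at 6.48, 5.63 and 7.54 in esophagus arrays and 4.04 to 4.85 in stomach, a log2 change of 2.32 against the mean of the other groups. Signals of such near-identical copies may cross-hybridise, so both are uncertain.

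Radial spoke genes were called in 3 of 4 cases. Rsph4a stood at 7.66, 7.39 and 8.53 in esophagus arrays, against 4.01 to 5.36 in the other arrays, and rose by 3.34 ± 0.23 or 10.1-fold (adjusted p = 3.6e-10). Rsph1 stood at 6.40, 6.32 and 6.71, against 4.00 to 5.29 elsewhere, and rose by 2.01 ± 0.20. Rsph9 rose by 1.18 ± 0.18 with overlap, reaching 6.51 in E18.5 bladder, and was not called against the 5 groups of like brightness. Lrrc23 was called against those groups (1.30) and not against all.

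Tektins and microtubule proteins were called in 1 of 7 cases. Enkur stood at 7.58, 7.01 and 8.31 in esophagus arrays, against 4.02 to 6.47 in the other arrays, and rose by 2.57 ± 0.27. Tppp3, the gene that changed most in trachea, stood at 7.45, 7.14 and 7.82 in esophagus arrays, below the 9.51 to 10.25 of the later skin ages and among the 4.71 to 8.51 of the rest. Its log2 change was -0.03 against all groups and 1.05 against the groups of like brightness, where it was called, although not when only those groups were normalized and fitted together. Tekt1, Tekt2, Tekt4, Mns1 and Tubb4b were not called against the mean of the other groups, with log2 changes of 0.07, 0.31, 0.31, 0.26 and 0.15.

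All 7 of the other ciliated cell proteins were called higher in esophagus. Efcab10, an EF-hand protein, stood at 10.87, 9.78 and 11.96 in esophagus arrays, against 4.18 to 5.59 in the other arrays, a log2 change of 6.08 ± 0.24 or 67.5-fold (adjusted p = 2e-13), the largest of the 38. Ccdc153 stood at 10.21, 9.67 and 11.30, against 4.06 to 4.88 elsewhere, a log2 change of 5.86 ± 0.19 or 58.2-fold (adjusted p = 7.4e-15). Ak7 stood at 10.08, 9.36 and 10.85, against 4.00 to 6.48 elsewhere, and rose by 4.89 ± 0.29. Pifo, which acts in cilium disassembly, rose by 2.60 ± 0.26, and Cdhr3 and Cdhr4, both cadherin-related proteins, rose by 1.89 and 1.79. Pifo stood at 6.67, 6.48 and 8.12 in esophagus arrays, against 4.00 to 5.28 in the other arrays. Cdhr3 stood at 6.14, 6.01 and 7.66 in esophagus arrays, against 4.27 to 5.39 in the other arrays. Cdhr4 stood at 7.22, 7.53 and 8.34 in esophagus arrays, against 4.67 to 7.59 in the other arrays. The esophagus arrays were above all others for Pifo and Cdhr3 and overlapped them for Cdhr4. Cdhr4 has 2 probe sets on these arrays, and the dimmer one was not 2-fold higher in esophagus. Of 11 cilia genes with a second probe set there, 7 changed in the same direction on it. Only 1 of those 11, Ccdc39, was at least 2-fold higher on it. Ccdc113 rose by 1.34 ± 0.21 and was not called when replicate 4 was left out.

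The arrays of esophagus were not alike. Replicate 4 was the highest of the 3 in 30 of 38 genes and in all 16 called higher, and replicate 2 was the lowest in 24 of 38 and in 13 of the 16. The mean level over the 38 genes was 6.54, 6.30 and 7.17 in replicates 1, 2 and 4, against 5.35 to 5.41 in stomach. Some secretory cell genes were also highest in replicate 4: Sec14l3 stood at 8.67, 7.69 and 9.74 and Scgb3a2 at 6.95, 7.06 and 8.08 in those replicates. Only Sec14l3 of this pair was lowest in replicate 2, as the mean of the cilia genes was. The mean of the 15 secretory genes had a lowest of 6.54, a median of 7.09 and a highest of 7.14 over the esophagus arrays. In stomach Sec14l3 and Scgb3a2 reached at most 4.61 and 5.49, and Scgb3a2 reached 7.74 in the remaining groups. Against stomach, 4 of 15 airway secretory genes were called higher in esophagus and 5 lower, where 2.81% of all genes were higher and 4.25% lower. Bpifb1 averaged 6.09 in esophagus and 14.61 in stomach, and Muc5b 4.96 and 13.00. Without replicate 4, 14 of 38 genes were called higher. Against the mean of the other groups, 6 of 15 airway secretory genes were called higher and 2 lower in esophagus. Of all genes, 9.27% were higher and 8.38% lower in that comparison. Cyp2f2 stood at 11.51, 12.14 and 12.68 in esophagus arrays, 9.06 to 9.45 in stomach arrays and 4.20 to 10.50 in the remaining arrays. The part of secretory cells in these values was not tested.

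**Figure D3:**
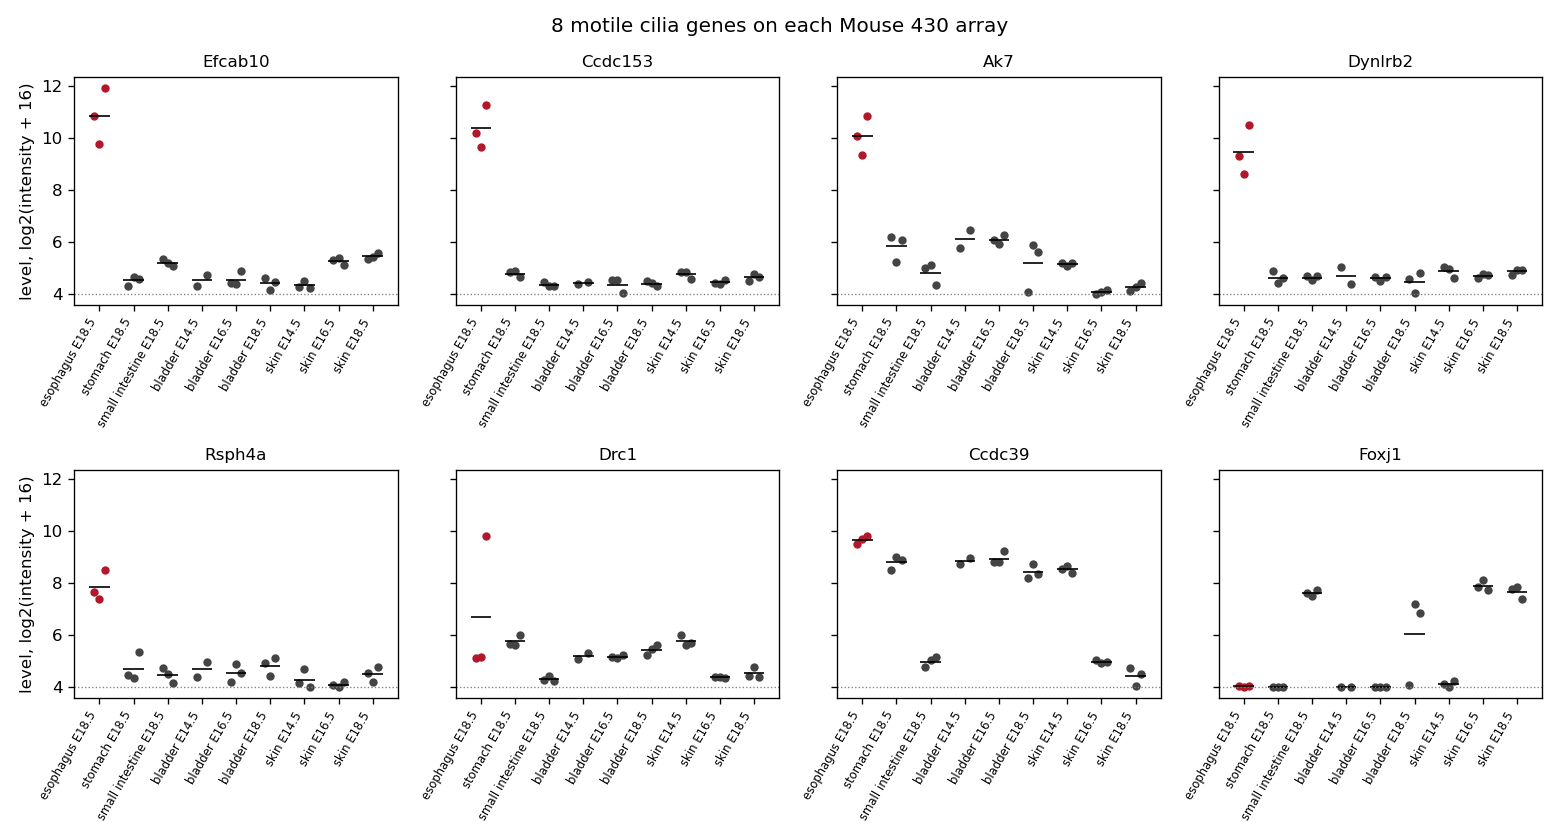
Level of 8 motile cilia genes on each Mouse 430 array, as log2(intensity + 16), with esophagus in red at the left, 1 point per array, a line at the group mean and a dotted line at the floor of 4. Efcab10, Ccdc153, Ak7, Dynlrb2 and Rsph4a are high in all 3 esophagus arrays, Drc1 in 1 of them, and Foxj1 is at the floor in all of them.

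Against stomach, the foregut neighbour of like brightness, 13 of 38 genes were called higher in esophagus and none lower, where 2.81% of all genes were higher and 4.25% lower. Efcab10 was 6.34 ± 0.32, Ccdc153 5.60 ± 0.25, Dynlrb2 4.85 ± 0.30 and Ak7 4.25 ± 0.38 above stomach. Against E18.5 bladder, 15 were higher and 1, Foxj1, lower (4.85% and 6.38% of all genes, 11.2% in all). Against small intestine 22 were higher and 2 lower, and against E18.5 skin 20 were higher and 2 lower, where 25.7% and 25.6% of all genes were higher and 23.1% and 23.3% lower. These comparisons share the esophagus arrays. In 9 of 38 genes esophagus was higher than each other group tested on its own, where 0.589% of all genes were: Dynlrb2, Rsph1, Rsph4a, Enkur, Ccdc153, Efcab10, Pifo, Ak7 and Cdhr3. Among the 5 groups of like brightness, 10 were, with Ccdc113 added, where 0.699% of all genes were.

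**Figure D4:**
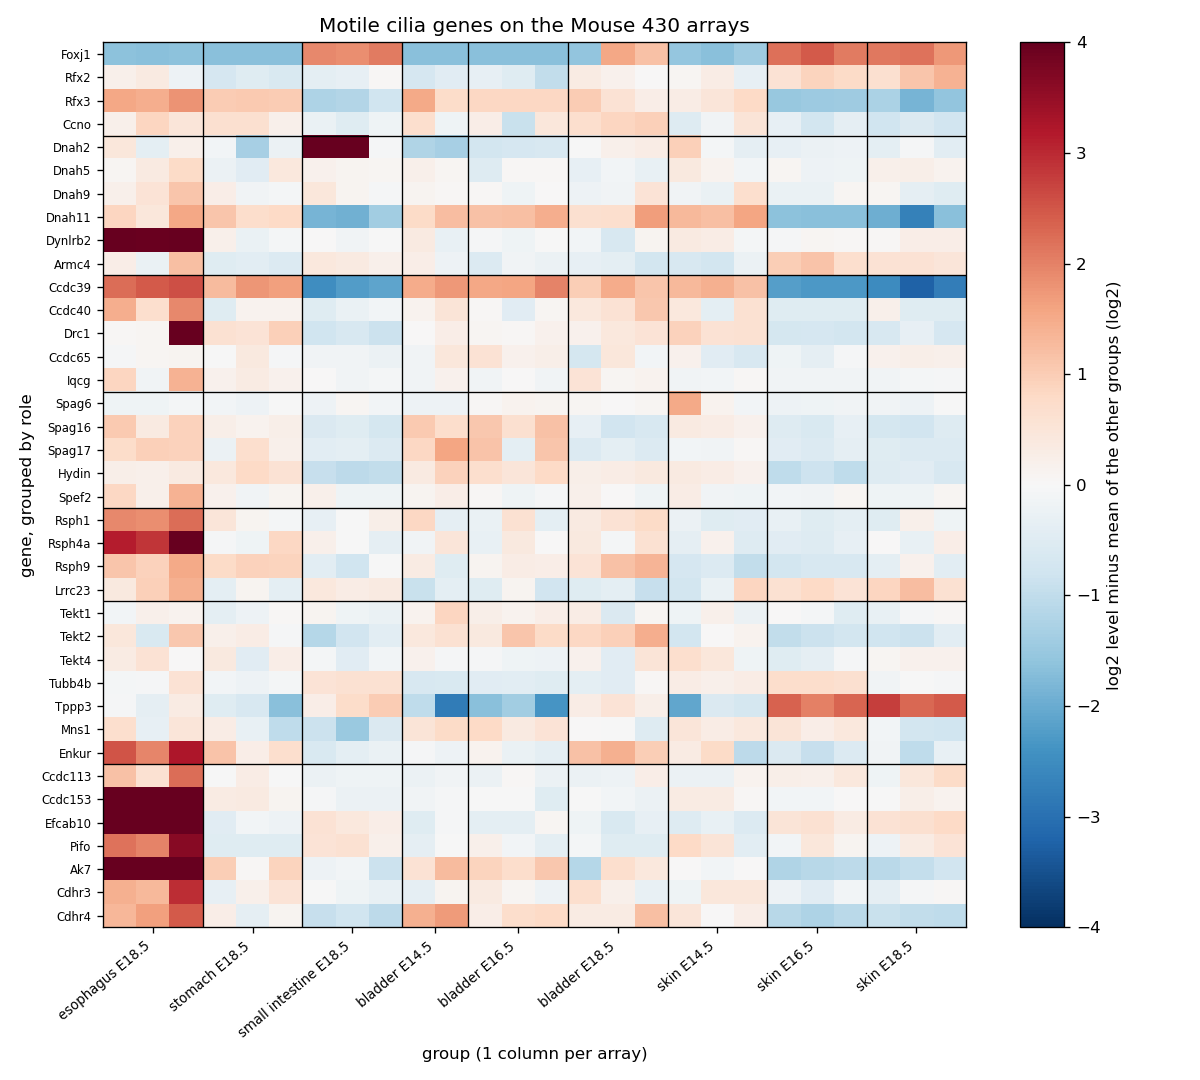
Level of the 38 motile cilia genes on every Mouse 430 array, as the log2 difference from the mean of the other groups, with 1 column per array, the esophagus arrays at the left, and genes grouped by role. Differences beyond 4 are drawn at the end of the colour scale. Efcab10, Ccdc153, Ak7 and Dynlrb2 are at the top of the scale in the esophagus columns, and Foxj1 is below 0 there.

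Set side by side, 7 of the 37 genes measured in both tables were called higher in both trachea and esophagus, where 251 of all 16556 genes in both tables (1.52%) were: Dynlrb2, Rsph1, Rsph4a, Enkur, Ccdc113, Ccdc153 and Ak7. They are 46.7% of the 15 called in trachea and 43.8% of the 16 called in esophagus, 8 were called in trachea and not in esophagus, 9 in esophagus and not in trachea, and 13 in neither. The tables differ in array type and in the groups compared, so the size of a change is not compared between them. Ak7, Ccdc153 and Rsph4a were higher than each other group in both tables, as were 21 of those 16556 genes. Those 21, of which names were picked after their values were seen, include Cfap43, Cfap54, Cfap161, Dnah6, Lrrc6, Meig1, Nme5 and Wdr63, genes of the lists of other axonemal and ciliated cell genes, and Cyp2f2 and Sec14l3, genes of secretory cells.

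**Figure D5:**
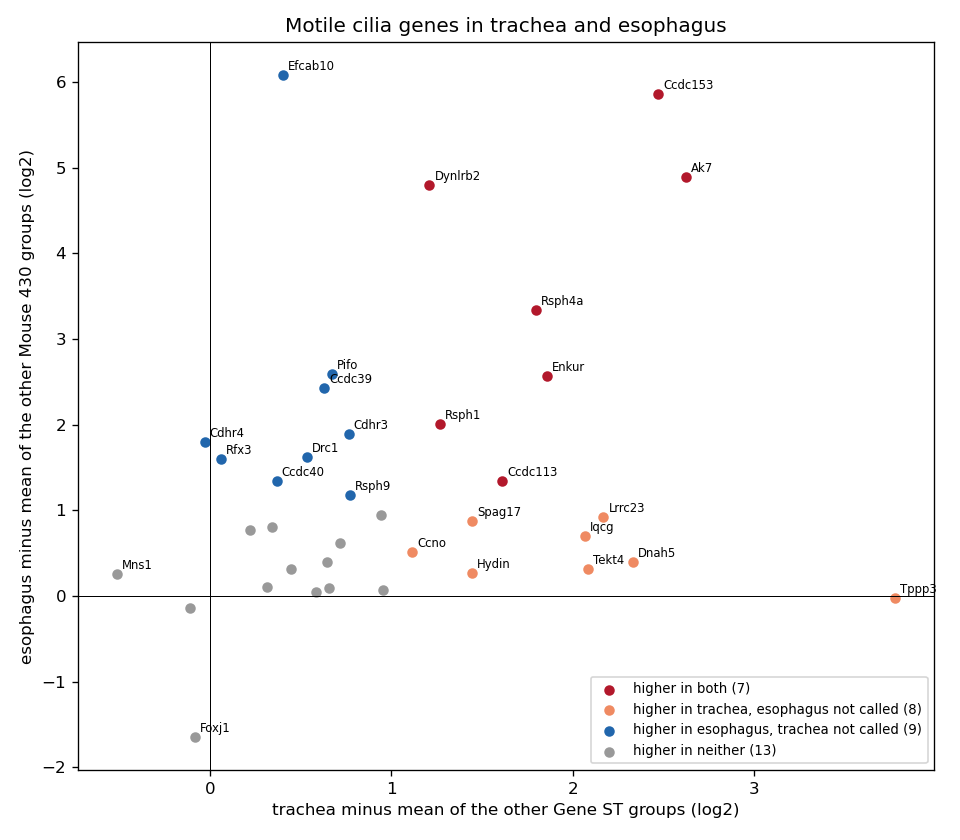
Log2 change of each motile cilia gene in trachea against the mean of the other Gene ST groups (horizontal) and in esophagus against the mean of the other Mouse 430 groups (vertical), 1 point per gene for the 37 measured in both, coloured by the calls. Efcab10 lies at 6.08 in esophagus and 0.40 in trachea, and Tppp3 at 3.78 in trachea and -0.03 in esophagus.

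Cilia genes outside the list were read the same way. Of axonemal dynein arm and assembly genes, 8 of 24 were called higher and 1 lower in trachea, and 7 of 21 higher and 1 lower in esophagus. For this and the next list, 10.2% of all genes were called higher and 6.96% lower in trachea. In esophagus the shares of all genes were 9.27% higher and 8.38% lower. In trachea, Dnah12, an inner arm heavy chain, stood at 12.36, 12.68 and 12.27, against 6.65 to 7.63 in cornea arrays, a log2 change of 5.12 ± 0.12, and Dnah6 rose by 3.08 ± 0.11. In esophagus Dnah6 rose by 2.15 ± 0.27, while Dnali1, at 15.31, 4.49 and 15.31, rested on replicates 1 and 4. Dnali1 also reached 12.98 in an array outside esophagus and stomach. Of 66 and 57 other axoneme and ciliated cell genes, 21 were higher and 2 lower in trachea and 23 higher and 1 lower in esophagus, with Meig1 at 4.52 and Cfap54 at 3.56 in trachea and Fam183b at 3.65 and Tmem212 at 3.60 in esophagus.

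Genes of cilia in general were read as well. Of 29 intraflagellar transport genes, which build motile and primary cilia alike, 3 were higher and 2 lower in trachea and 4 higher and none lower in esophagus. In trachea those counts are close to the 10.2% of all genes called higher and the 6.96% called lower, and in esophagus 9.27% of all genes were called higher and 8.38% lower. Of 22 genes of the BBSome and transition zone, 1 was higher and 1 lower in trachea and 3 were higher in esophagus. Among 23 and 20 other regulators of multiciliogenesis and centriole amplification, 2 were higher in trachea, Stil and Deup1, and 4 were higher and 2 lower in esophagus. Deup1, a protein of the structures that multiply centrioles, rose by 1.09 ± 0.09 in trachea.

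The genes outside the list whose levels were most like the mean of the cilia genes over all arrays of a table were found by Pearson correlation, as a description over arrays that share tissue and brightness. Over the 27 Gene ST arrays Lrrc34 came first (r = 0.97), and Hapln1, Col2a1 and Col9a3, genes of cartilage matrix, were among the first 10. Over the 26 Mouse 430 arrays Lrrc6, a dynein arm assembly factor, came first (r = 0.98), followed by Iqub, Spag6l, Tmem232 and Hoatz.

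Promoters were searched because Rfx factors bind an inverted repeat called the X-box, searched here as GTNNCC, 0 to 3 letters and GGNNAC on both strands. RefSeq promoters (GRCm38.p6, 250 bases before to 50 after the start) were listed for 33 of the 38 genes, and not for Foxj1, Armc4, Rsph1, Rsph4a and Tppp3. The X-box letters were in 8 of 33 (24.2%), against 4.38% of 27025 genes with a promoter, and in the 250 bases before the start alone in 4 of 33 (12.1%), against 3.66%. The half-site GTTGCC, which can overlap the X-box, searched on both strands as well, was in 22 of 33 (66.7%), against 14.1% of all, and a forkhead motif TGTTTAC in 1 of 33, Ak7, against 4.05%. The 4 stretches with the X-box before the start are shown, with the matched letters in capitals, because the other 4 matches reach past the start or lie after it. Lrrc23 lies at chr6:124779839-124779931 on the minus strand, Pifo at chr3:106001498-106001557 on the minus strand, Ccno at chr13:112987552-112987636 on the plus strand and Tekt4 at chr17:25471390-25471483 on the plus strand, all upstream of the start.
Lrrc23: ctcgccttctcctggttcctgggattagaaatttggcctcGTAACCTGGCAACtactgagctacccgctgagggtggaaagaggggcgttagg
Pifo: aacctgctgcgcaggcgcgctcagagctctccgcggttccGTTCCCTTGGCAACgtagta
Ccno: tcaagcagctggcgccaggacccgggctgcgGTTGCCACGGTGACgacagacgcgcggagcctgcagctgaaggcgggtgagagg
Tekt4: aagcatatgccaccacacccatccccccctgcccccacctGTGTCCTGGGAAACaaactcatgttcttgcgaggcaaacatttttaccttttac
Pifo was called in esophagus and not in trachea, Ccno, Lrrc23 and Tekt4 in trachea and not in esophagus against the mean of the other groups. The match is a description of letters and not of binding.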

How the data were processed

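The members and gene lists were chosen with earlier results of these data known. The deposited intensity values were summarised with PLIER 2.0 (Affymetrix Expression Console 1.1.1), as the submitters' processing notes record. Normalization between arrays: not given in the sources used here. Values cover 35556 probe sets on 27 Gene ST arrays and 45101 on 26 Mouse 430 arrays. Array medians of log2(intensity + 16) differed by more than 0.2, so quantile normalization was applied in each table by itself, with no test across tables. Probe sets with 1 annotated gene were kept (21789 and 34958), and each gene was read from its brightest one. Linear models in limma 3.58.1 (R 4.3.3) covered all groups of a table, with eBayes and Benjamini-Hochberg adjustment, and the procedure was tested on simulated data. Outside the 38 members, up to 4 called genes per list with the largest change, its defining markers and, per table, 10 genes by correlation could be named. Promoters could be printed for up to 6 members. Alternatives are given in the closing section. The number of arrays limits the precision.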

Additional observations from a re-analysis of the deposited data

How the results depend on the processing

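Over 1091 combinations of gene, comparison and setting, from 75 results on single genes, 997 kept their direction and side of the threshold, 50 gained a call, 15 lost it, 28 changed sign without a call under either setting, and 1 reversed. The reversal was Tppp3 in esophagus, at 1.05 (limma adjusted p = 0.0213) against the 5 groups of like 99th percentile. Those settings, and the ones without the lung-labelled arrays, were chosen after seeing the data. With no fold limit, members called higher numbered 31 in trachea against the mean of the other groups, 25 in esophagus against the mean and 29 in trachea against lung-labelled arrays, and all genes called higher numbered 6042, 4788 and 4380, with 1090 for esophagus against stomach. Among genes above the table median, members called higher in esophagus numbered 8 against stomach, 12 against small intestine and 12 against E18.5 skin. They numbered 9 against E18.5 bladder, where 544 of all genes were. That filter keeps a gene whose mean exceeds the table median in any compared group, the tested one included. Members dim elsewhere can thus pass through esophagus alone. The filter also leaves fewer members and fewer genes to test, so these counts cannot be set beside the shares given above and add no support to them. Of all genes, those higher in esophagus against the mean numbered 2687 with a pseudocount of 1, 892 with the mean of all probe sets, 642 against the like groups and 652 with only like groups in the fit and normalization, against 1684 as reported. Genes higher in trachea than in each other group numbered 1168 without the lung-labelled arrays and 605 with them, and those higher in esophagus than in each other group 71 with a pseudocount of 1 and 107 as reported. The X-box count was 4 in the 250 bases before the start. Leaving out 1 array at a time gave 15 to 16 members higher in trachea and 14 to 19 in esophagus against the mean. For trachea it gave 19 to 20 against lung-labelled arrays and 11 to 15 against E17.5 cornea. For esophagus it gave 11 to 14 against stomach and 20 to 24 against small intestine. It gave 18 to 24 against E18.5 skin and 12 to 19 against E18.5 bladder. No all-gene counts are set beside these ranges, which show only how the member counts moved. With the replicate number as a block, 19 members were called higher in trachea against lung-labelled arrays, as without it, and 10 in esophagus against stomach, against 13 without it. Same-numbered arrays had deviations correlated at -0.01 to -0.07 and at 0.06 to 0.13, so the numbers were not taken to pair arrays. Genes near the floor of 4 have no order there, and the changes of dim genes are understated.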
